A study of Drosophila melanogaster with 30 samples.

Results

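The odorant binding protein (Obp) genes of Drosophila melanogaster were followed in single male flies that differed in age and in sleep. The members were all genes of the count table whose symbol starts with Obp and a digit, 51 of 17559 genes. Poly(A) RNA of heads and bodies was sequenced from flies of genotype Cantonized w1118, a white-eyed laboratory strain, so that every group carried the same white mutation. The aged SF flies were 25 days old with fragmented sleep, the aged NSF flies were 25 days old and slept normally, and the young flies were 5 days old and also slept normally. Each of these 3 groups had 5 head and 5 body libraries, 30 in all. All flies were kept at 25 °C and 60% humidity, with 12 h of light and 12 h of darkness. The sleep class was assigned from a sleep assay on the same individuals, and no young fly with fragmented sleep was part of the series, so aged SF and young flies differ in both age and sleep class.

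Odorant binding proteins are small secreted proteins, most of them held in shape by disulfide bonds. In the antenna they are released by support cells into the fluid around the olfactory dendrites, where they bind hydrophobic odorants and pheromones. Others are made in taste hairs of the labellum, legs and wings, and several belong to the seminal fluid or to tissues with no chemosensory role. The gene lush, whose protein is needed to sense the male pheromone cis-vaccenyl acetate, is an Obp gene under another symbol and was therefore grouped with the other proteins of the sensillum.

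The 15 head libraries held between 1685034 and 3597530 counts, and the 15 body libraries between 2458538 and 8060238. Levels are in CPM, counts scaled to a common library size. A count of 0 allows up to 3 counts, which correspond to 0.786 to 1.75 CPM in heads and 0.398 to 1.42 CPM in bodies. This limit covers counting error only. Head markers of eye and brain summed to 28327 to 53692 CPM in heads. In bodies they summed to 100.3 to 178 CPM, except for 857 CPM in aged NSF body 2, in which the rhodopsin gene ninaE stood at 377 CPM, against 4.77 to 15.1 CPM in the other bodies. Testis markers summed to 372 CPM in aged NSF body 1, against 2542 to 6569 CPM in the other bodies. Values of bodies are therefore given with and without these 2 libraries where they change a call. Each library came from 1 fly, nothing in the labels pairs a number across groups, and all libraries carry the same batch label.

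The number of reads differed widely between members. Of the 51 members, 4 had no read in any library (Obp47a, Obp50b, Obp50c and Obp57d), and 7 more had 1 to 20 reads in all 30 libraries together (Obp47b, Obp56c, Obp57e, Obp58c, Obp58d, Obp73a and Obp85a). Of these 11 members, Obp50b and Obp50c share 100% of their exon length with each other, Obp57d with Cpr57A and Obp47b with CG7741, so that a read there has no unique gene and their counts say nothing firm about expression. Reads were found for 41 members in heads and for 45 in bodies, and 19 members had reads in all 15 heads, 21 in all 15 bodies. After the filter on low counts 25 members were tested in heads, 23 in bodies, 16 in both and 32 in at least 1 tissue. The other 19 were not tested, and the counts of changed members below say nothing about them.

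The members sit on 5 chromosome arms, 29 on 2R, 12 on 3R, 6 on X, 2 on 2L and 2 on 3L, and many lie in clusters. In the coordinates of dm6, 4 members share a stretch of 5.24 kb of the X chromosome from 20415744 to 20420979 (Obp19a to Obp19d). A run of 9 members lies at 2R from 19697723 to 19868714 (Obp56a to Obp56i), 5 at 2R from 20503584 to 20550117 (Obp57a to Obp57e), 5 at 3R from 5972155 to 6112302 (Obp83a, Obp83b and 3 others) and 4 at 3R from 29671657 to 29716896 (Obp99a to Obp99d). Levels within a cluster could differ widely or be alike. In heads the adjacent Obp83a and Obp83b stood at 98.7 and 105.5 CPM per kb. In the X cluster, Obp19d (20419613 to 20420979, plus strand) had the highest head level per exon length of all members, 2035 CPM per kb as a mean of 15 heads, against 19.0 CPM per kb for Obp19b (20416733 to 20417812, plus strand). After Obp19d, the highest head levels per kb were 837 for Obp99c, 609 for Obp56d, 588 for Obp99b, 443 for Obp44a and 266 for Obp49a. In bodies the order was another one, with 1539 CPM per kb for Obp56g, 1428 for Obp51a, 632 for Obp99c, 369 for Obp56d, 228 for Obp44a and 140.1 for Obp99a.

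**Figure D1:**
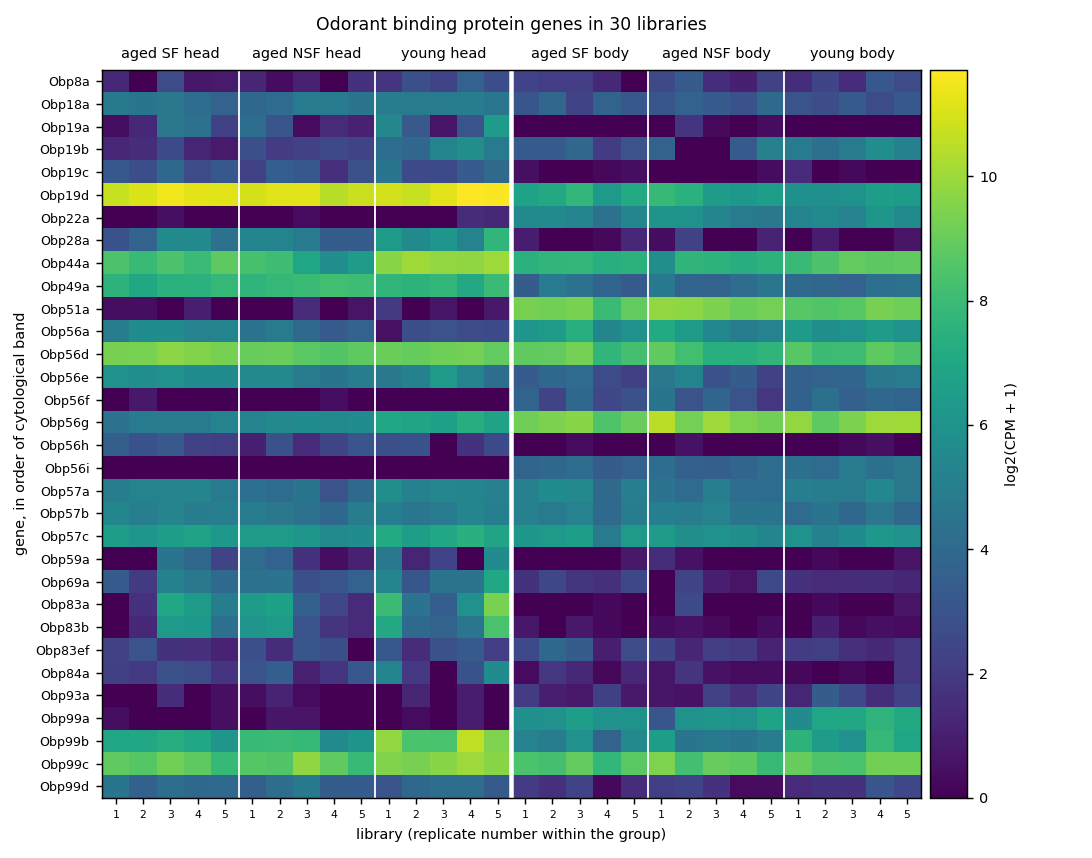
Expression of the 32 tested Obp genes (rows) in the 30 libraries (columns, heads then bodies, aged SF, aged NSF and young within each), as log2(CPM + 1). Brighter cells are higher. Obp19d is bright in every head, Obp22a, Obp51a, Obp56f, Obp56i and Obp99a are clearly present in bodies and at or near 0 in heads, and the antennal members (Obp83a, Obp83b, Obp28a and others) vary between single heads of every group.

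Added over all 51 members, Obp reads made up 4498 ± 751 CPM in aged SF heads, 3854 ± 793 CPM in aged NSF heads and 6691 ± 1563 CPM in young heads (SD, n = 5 each). In bodies the sum was 2652 ± 758 CPM in aged SF, 2994 ± 820.5 CPM in aged NSF and 3193 ± 714 CPM in young flies. Obp19d, known from antennae and taste organs outside the olfactory lymph, made up 50.3% of the sum in aged SF heads, 50.8% in aged NSF heads and 37.4% in young heads. In bodies the largest share belonged to Obp56g, which encodes a seminal protein, with 22.3%, 29.4% and 25.6% in the aged SF, aged NSF and young groups.

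The levels of most members differed between heads and bodies of young flies, although Obp44a, Obp56d and Obp99c were among the 6 highest per kb in both tissues. Tested with edgeR in a fit of all 30 libraries, 28 of 32 members differed between young heads and young bodies, 20 higher in heads and 8 lower, where 70.8% of all genes differed (27.7% higher and 43.1% lower). Their median log2 fold change was 1.16, against −0.27 for all genes. All 7 members known from olfactory sensilla (Obp19a, Obp28a, Obp59a, Obp69a, Obp83a, Obp83b and Obp84a) were higher in heads. Obp83b, for example, had 9 reads in the 5 young bodies together, with a log2 fold change of 7.88 ± 1.49 (SE), and Obp28a had 7 reads there, with a log2 fold change of 8.01 ± 0.89. Obp83a had 0 to 2 reads in each body except aged NSF body 2, the one with eye transcripts, which had 11. Obp19d was higher in heads by 5.15 ± 0.32 and Obp49a by 3.65 ± 0.26 on the log2 scale. Of 7 members listed for the male reproductive tract, 5 were lower in heads (Obp22a, Obp51a, Obp56f, Obp56g and Obp56i), Obp56e was higher, with a log2 fold change of 1.13, and Obp8a did not pass. Obp51a, a seminal fluid gene at 2R from 15024375 to 15024839 on the minus strand, was lower in heads by a log2 fold change of −9.15 ± 0.53 and Obp56g by −2.75 ± 0.25. Outside that list, Obp56a was lower in heads, with a log2 fold change of −3.88 ± 0.48. Obp56i had no read in any of the 15 heads and 15.9 to 26.5 CPM in young bodies. For Obp19b, Obp57a, Obp8a and Obp83ef no difference passed the test (edgeR adjusted p of 0.888, 0.204, 0.506 and 0.113). With RLE in place of TMM scaling the median of all genes moved to −0.40, and the head excess of Obp56d, Obp56e and Obp99c no longer passed (adjusted p of 0.0834, 0.0627 and 0.0811, against 0.0214, 0.0286 and 0.0321 with TMM).

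**Figure D2:**
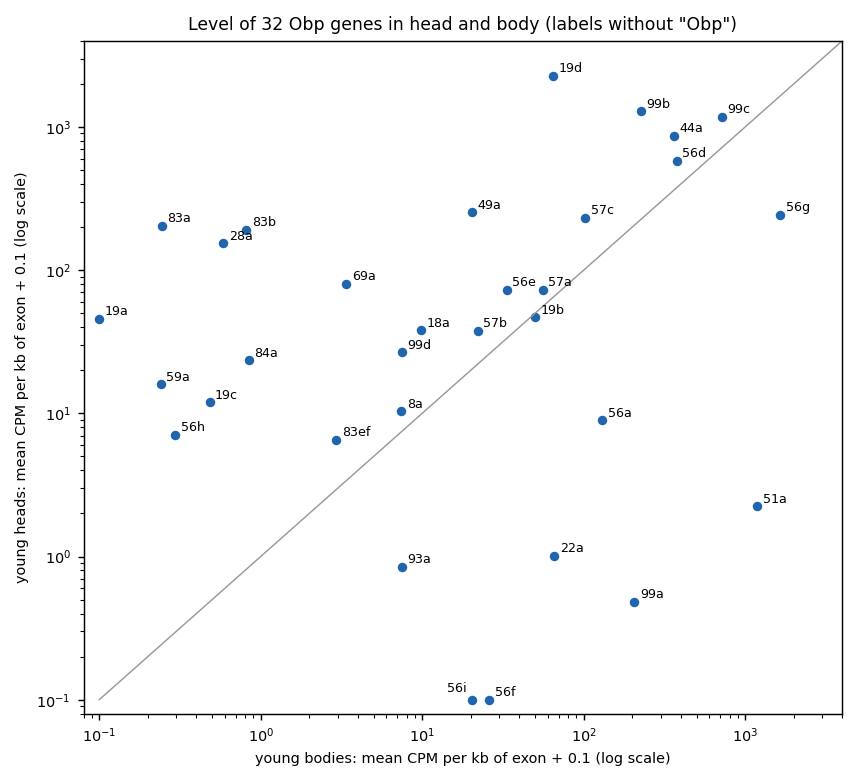
Mean level of each of the 32 tested Obp genes in young heads (vertical axis) and young bodies (horizontal axis), in CPM per kb of exon plus 0.1, both axes logarithmic, n = 5 libraries each. Olfactory members lie far above the diagonal with Obp19d at the top, and Obp51a, Obp99a, Obp56f and Obp56i lie at the bottom, with body levels far above their head levels.

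In heads, ageing went with lower levels of most members that changed. In aged NSF over young heads 7 of 25 tested members passed the test, 1 higher and 6 lower, beside 22.8% of all 9088 genes tested (11.4% higher and 11.5% lower). In aged SF over young heads 7 of 25 passed, 2 higher and 5 lower, beside 25.2% of all genes (13% higher and 12.2% lower). Either share of members, 7 of 25, is close to that background. The members' median log2 fold change was −0.94 in aged NSF and −0.72 in aged SF over young heads, against 0.02 and −0.00 for all genes. Both contrasts use the same young heads. The 6 members that passed in both were Obp19b, Obp44a, Obp56a, Obp56g, Obp57c and Obp99b. In whole heads, fewer cells of a type and less RNA per cell cannot be told apart.

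None of the 7 olfactory members passed with edgeR in any head comparison, and they varied widely between single flies of each group. Obp83a, the antennal protein OS-F (3R, 5972155 to 5975245, minus strand), had 0, 2.22, 130.2, 81.6 and 30.5 CPM in aged SF heads, 84.9, 104, 11.1, 4.72 and 1.61 CPM in aged NSF heads and 258, 20.7, 10.5, 59.4 and 661 CPM in young heads. Levels of Obp83a differed widely within every group, and the 3 ranges overlapped. The lowest young head stood at 10.5 CPM, against 0 CPM for the lowest aged SF and 1.61 CPM for the lowest aged NSF head. Summed over the 7 members, levels were 20.2, 23.4, 340.2, 266 and 93.8 CPM in aged SF heads, 252, 273, 54.5, 29.0 and 34.9 CPM in aged NSF heads and 619, 104, 116, 156 and 1508 CPM in young heads. All 7 members had negative log2 fold changes in both ageing comparisons, with a median of −1.76 in aged NSF and −1.50 in aged SF over young heads, against 0.02 and −0.00 for all genes. The groups overlapped, and 2 of the 7 members had an unadjusted p below 0.05 in each ageing comparison and none in aged SF over aged NSF heads. DESeq2 called Obp28a in both ageing comparisons.

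Markers of the antenna moved together with these members. The summed level of a10 and Os-C, 2 genes of antennal support tissue that are not Obp genes, had a range of 5.41 to 185 CPM and a median of 24.2 CPM in aged SF heads. It had a range of 1.61 to 157 CPM and a median of 17.7 CPM in aged NSF heads, and a range of 25.6 to 660.4 CPM and a median of 49.1 CPM in young heads. Each group had 2 heads among the 6 with the highest marker level. Young heads 4, 2 and 3 came next, and the heads at ranks 10 to 15 were all aged. Over 15 heads, log2 Obp83a followed the log2 marker level with Pearson r = 0.953 and Spearman rho = 0.961 (permutation test, adjusted p = 7.5e-05 for each over 15 relations). For the 7 olfactory members r lay between 0.628 for Obp84a (adjusted p = 0.0197) and 0.963 for Obp83b. Without the heads at the extremes of the marker, young head 5 and aged NSF head 5, r lay between 0.685 and 0.963. Within the 6 heads of highest marker level r was 0.888 to 0.994, and within the other 9 it was −0.323 to 0.846, so that for some members the relation did not hold among the heads with little antennal RNA. The value of −0.323 was that of Obp84a, of whose exons 81.2% overlap Dtwd2. Of the exons of Obp59a, at 0.290 in these 9 heads, 22.2% overlap CG30259. The part of these overlaps in the counts was not tested. For 8 other members with a called change in heads r ran from −0.215 for Obp56a to 0.637 for Obp57c (permutation test, adjusted p = 0.0197), at most 0.528 without the same 2 heads. By the same test Obp99b (r = 0.635, adjusted p = 0.0197) and Obp44a (r = 0.591, adjusted p = 0.032) also passed. The permutations shuffled heads across the groups, the marker median was lower in both aged groups, and these 8 members were chosen for a change in heads. A shared difference with age and a relation between single flies cannot be told apart by this test. The relation within single groups was not tested. For these 8 members r was −0.672 to 0.962 within the 6 heads of highest marker level and −0.274 to 0.807 within the other 9. Both upper ends were those of Obp44a, so a high r was not particular to the olfactory members. In both sets of heads the young heads had the highest marker levels, and Obp44a was higher in all young heads than in all aged heads. Its r within these sets therefore cannot be told apart from its difference with age. The share of antennal tissue in each head is not given in the labels.

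**Figure D3:**
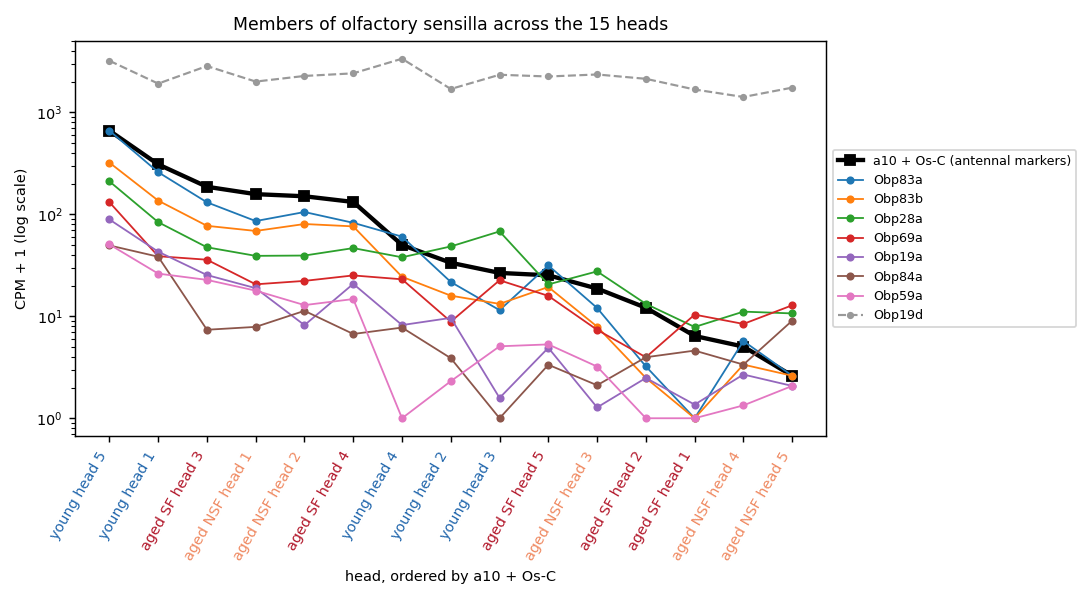
Level of each of the 7 olfactory Obp genes and of Obp19d, and the summed level of the antennal markers a10 and Os-C, in the 15 heads ordered by marker level, as CPM plus 1 on a logarithmic axis. Most olfactory members climb with the markers (Obp83a up to 661 CPM in young head 5), and Obp19d stays between 1415 and 3358 CPM throughout. Young heads stand at ranks 1, 2, 7, 8 and 9 of the order, and all heads at ranks 10 to 15 are aged.

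The marker level was also used as a covariate, an alternative added after these values had been seen. With it, 8 of 25 members passed in aged NSF over young heads, beside 1731 of 9088 genes. For aged SF over young heads 7 passed, beside 2165 genes, and for aged SF over aged NSF heads 2, beside 23 genes. Obp28a, an antennal gene at 2L from 7496791 to 7497365 on the minus strand, was then lower by a log2 fold change of −1.07 ± 0.25 in aged NSF (edgeR adjusted p = 0.00308) and of −1.23 ± 0.24 in aged SF heads (adjusted p = 0.00037). Without the covariate its log2 fold changes were −1.82 ± 0.63 (adjusted p = 0.0579) and −1.70 ± 0.63 (adjusted p = 0.0699). Obp57c lost its call in aged SF over young heads, at a log2 fold change of −0.42 ± 0.17 (adjusted p = 0.079), against −0.51 ± 0.18 without the covariate, and the other called members kept theirs.

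Among the members listed for taste organs, 3 of 6 tested were lower in aged NSF heads and 2 of 6 in aged SF heads. Each comparison was over young heads, beside 11.5% and 12.2% of all genes. The list was chosen with earlier results of these data known, so these shares are description only. It leaves out Obp19d, also known from taste organs, which passed in neither comparison (edgeR adjusted p of 0.211 and 0.794). The largest decrease was that of Obp19b, which is needed in labellar taste hairs for the response to some amino acids. Obp19b had 1.44, 1.85, 5.25, 1.34 and 0.782 CPM in aged SF heads, 6.19, 3.12, 3.87, 5.05 and 4.30 CPM in aged NSF heads and 18.1, 13.4, 37.9, 54.0 and 27.1 CPM in young heads. Every aged head lay below every young head, while the 2 aged groups overlapped through aged SF head 3. The log2 fold change was −3.73 ± 0.45 in aged SF over young heads (edgeR adjusted p = 8.69e-07), a 13.2-fold lower level, and −2.72 ± 0.41 in aged NSF over young heads (adjusted p = 2.1e-05), a 6.59-fold lower level. Both passed under each of 17 alternatives, with an adjusted p of at most 4.7e-05 for aged SF and 0.000171 for aged NSF.

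Obp57a, Obp57b and Obp57c, which lie side by side at 2R from 20503584 to 20505758 on the plus strand and are expressed in taste organs, behaved alike only in part. Obp57a had 29.6, 36.3, 36.4, 39.3 and 27.0 CPM in aged SF heads, 18.2, 16.6, 22.4, 7.08 and 15.6 CPM in aged NSF heads and 53.8, 34.6, 41.4, 39.6 and 33.1 CPM in young heads. All aged NSF heads lay below all heads of the other groups, and aged SF and young heads overlapped. Obp57a stood at a log2 fold change of −1.32 ± 0.24 in aged NSF over young heads (edgeR adjusted p = 0.000168) and −0.20 ± 0.23 in aged SF over young heads (adjusted p = 0.587). Obp57c had 90.6, 68.2, 94.9, 106 and 75.8 CPM in aged SF heads, 80.4, 84.0, 73.6, 46.8 and 49.96 CPM in aged NSF heads and 143, 92.5, 125, 172 and 114 CPM in young heads. Every aged NSF head lay below every young head, and aged SF heads 3 and 4 reached into the range of young heads. The log2 fold change of Obp57c was −0.94 ± 0.19 for aged NSF (adjusted p = 0.000462) and −0.51 ± 0.18 for aged SF (adjusted p = 0.0412). The call for aged SF was lost without any 1 of young heads 1, 3 and 4 and aged SF heads 1, 2, 3 and 5 (adjusted p of 0.0529 to 0.152, and of 0.0139 to 0.152 over all alternatives). Obp57b averaged 34.4 ± 4.81 CPM in aged SF, 23.8 ± 6.69 CPM in aged NSF and 31.0 ± 5.91 CPM in young heads (SD, n = 5 each), and no head comparison passed for it.

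Obp49a, a gene of gustatory support cells whose protein takes part in the suppression of sweet taste by bitter compounds (2R, 12690059 to 12690955, minus strand), passed in no head comparison. It had 191, 129, 177, 178 and 223 CPM in aged SF heads, 195, 226, 252, 287 and 266 CPM in aged NSF heads and 206, 188, 212, 135 and 249 CPM in young heads. The 3 groups overlapped, and the log2 fold change in aged NSF over young heads was 0.31 ± 0.15 (edgeR adjusted p = 0.142).

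The cluster of Obp56 genes on 2R held members that went opposite ways with age in the same heads. Obp56a (19697723 to 19698508, plus strand) had 29.9, 50.4, 51.0, 35.2 and 37.9 CPM in aged SF heads, 21.3, 26.9, 15.8, 9.44 and 11.8 CPM in aged NSF heads and 0.420, 6.03, 6.99, 5.40 and 5.27 CPM in young heads. The 3 groups did not overlap. Obp56a was higher by a log2 fold change of 3.15 ± 0.37 in aged SF over young heads (edgeR adjusted p = 9.49e-07), an 8.87-fold level, and of 1.84 ± 0.37 in aged NSF over young heads (adjusted p = 0.00077), a 3.57-fold level. Obp56g (19783484 to 19784043, minus strand), whose protein passes to females with the seminal fluid and takes part in forming the mating plug, had 20.6, 26.7, 27.4, 28.2 and 37.1 CPM in aged SF heads, 36.8, 44.4, 50.4, 46.8 and 51.6 CPM in aged NSF heads and 128, 114, 103, 155 and 105 CPM in young heads. Both aged groups lay below all young heads, and between the aged groups only aged SF head 5 and aged NSF head 1 crossed. Obp56g was lower by a log2 fold change of −2.05 ± 0.17 in aged SF (adjusted p = 1.56e-09) and of −1.39 ± 0.17 in aged NSF over young heads (adjusted p = 6.9e-07). Accessory gland markers summed to 3.0 to 15.3 CPM in heads, against 1337 to 6644 CPM in bodies, and their part in the level of Obp56g was not tested. The 6 genes listed for the ejaculatory duct and bulb summed to 2633 to 6255 CPM in heads, against 3001 to 14014 CPM in bodies. Within that list PebIII was higher in heads (2523 to 6035 CPM) than in most bodies (1300 to 2911 CPM), while Peb and PebII stood at up to 4.12 and 6.45 CPM in heads, against at least 805 and 289 CPM in bodies.

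Obp56d (19702924 to 19703915, minus strand), the third most abundant member of heads per exon length, had 635, 647, 821, 726 and 645 CPM in aged SF heads, 500.4, 527, 419, 387 and 443 CPM in aged NSF heads and 536, 496, 556, 609 and 479 CPM in young heads. Every aged SF head lay above every other head, and aged NSF and young heads overlapped. The log2 fold change was 0.44 ± 0.13 in aged SF over young heads (edgeR adjusted p = 0.011) and −0.23 ± 0.13 in aged NSF over young heads (adjusted p = 0.204). Obp56e, of whose exons 84.4% overlap an antisense RNA gene, averaged 54.8 ± 5.30 CPM in aged SF, 33.3 ± 10.2 CPM in aged NSF and 38.8 ± 24.4 CPM in young heads (SD, n = 5 each), and neither ageing comparison passed for it. Strand was not used to tell it from that gene.

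**Figure D4:**
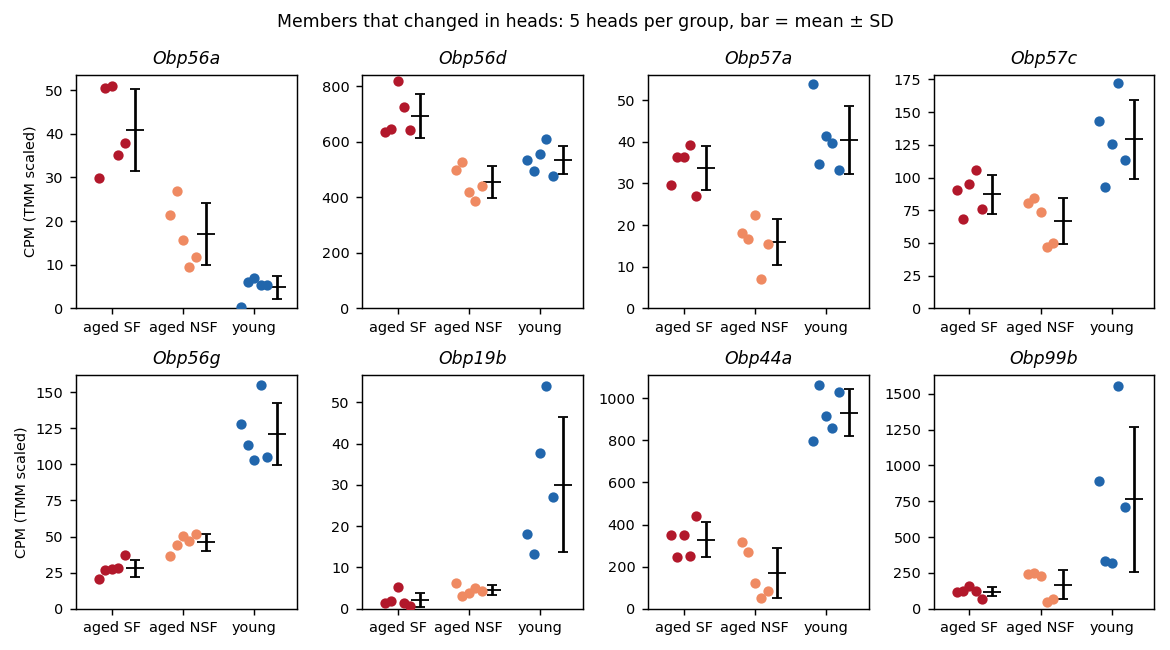
CPM per library, with mean and SD (n = 5), of the 8 Obp genes called in at least 1 head comparison, for aged SF, aged NSF and young heads. Obp56a is highest in aged SF heads, next in aged NSF heads and lowest in young heads without overlap, Obp19b, Obp44a, Obp56g and Obp99b sit lower in both aged groups, and Obp57a is low in aged NSF heads alone.

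Abundant members outside the sensory groups fell as well. Obp44a (2R, 8134170 to 8135315, minus strand), which is made by glia of the central nervous system, had 351, 245, 350.0, 249 and 443 CPM in aged SF heads, 318, 271, 122, 53.2 and 83.8 CPM in aged NSF heads and 797, 1060.5, 913, 859 and 1029 CPM in young heads. All aged heads lay below all young heads, and aged NSF heads 3 to 5 lay below every aged SF head. Its log2 fold change was −2.44 ± 0.42 in aged NSF over young heads (edgeR adjusted p = 0.00102) and −1.45 ± 0.41 in aged SF over young heads (adjusted p = 0.0204). Without aged SF head 2 or 4 the call for aged SF was lost (adjusted p of 0.0527 and 0.0509, with a range of 2.75e-06 to 0.0527 over 17 alternatives). Of the exons of Obp44a, 19.1% overlap Pabp2.

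Obp99b (3R, 29716254 to 29716896, minus strand), a male-enriched gene of the fat body of the head that lies under control of the sex determination pathway, had 116, 125, 158, 127 and 67.2 CPM in aged SF heads, 245, 248, 230.5, 46.2 and 65.0 CPM in aged NSF heads and 891, 335, 322, 1557 and 708 CPM in young heads. All aged heads lay below all young heads. Its log2 fold change was −2.63 ± 0.58 in aged SF over young heads (edgeR adjusted p = 0.00514) and −2.19 ± 0.57 in aged NSF over young heads (adjusted p = 0.0143). With only aged NSF and young heads in the fit the adjusted p was 0.0513, with a range of 0.000418 to 0.0513 over 17 alternatives. Fat body markers were also lower in most aged heads than in young heads. Summed over 6 genes they stood at 234, 306, 1215, 769 and 308 CPM in aged SF heads, 449.5, 401, 271, 72.8 and 43.0 CPM in aged NSF heads and 3632, 1469, 1188, 4912 and 1975 CPM in young heads. Of these 6 markers, 4 were lower in aged NSF heads (Lsp1beta, tobi, Lsp2 and sxe2) and 1 in aged SF heads (tobi), each over young heads. Of all genes tested, 11.5% and 12.2% were lower in these 2 comparisons. In aged SF over aged NSF heads the markers had a median log2 fold change of 1.06, against −0.44 ± 0.55 for Obp99b. Neither Obp99b nor any of the 6 markers passed there. The part of the fat body markers in the levels of Obp99b and Obp44a was not tested.

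Obp99c (3R, 29685736 to 29689311, minus strand) averaged 424 ± 134 CPM in aged SF, 467 ± 233 CPM in aged NSF and 789 ± 146 CPM in young heads (SD, n = 5 each). All aged SF heads lay below all young heads, and aged NSF head 3, at 859 CPM, lay within the range of young heads. The log2 fold changes of −0.84 for aged SF and −0.76 for aged NSF over young heads missed the threshold in edgeR (adjusted p of 0.0656 and 0.101), while DESeq2 called both. Obp19d, the most abundant member, averaged 2263 ± 425 CPM in aged SF, 1958 ± 386 CPM in aged NSF and 2502 ± 751 CPM in young heads (SD, n = 5 each), and the groups overlapped.

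Heads of aged flies with fragmented sleep differed from those of aged flies with normal sleep in few genes, and 2 of 25 tested Obp members were among them, both higher, beside 0.253% of all genes tested, 23 of 9088 (0.22% higher and 0.033% lower). Obp56d was higher in aged SF heads by a log2 fold change of 0.67 ± 0.13 (edgeR adjusted p = 0.0125) and Obp57a by 1.13 ± 0.24 (adjusted p = 0.0357). For both, every aged SF head lay above every aged NSF head. Both calls were sensitive to single libraries. Obp56d lost its call without aged SF head 3, aged SF head 4 or aged NSF head 4 (adjusted p of 0.0994, 0.055 and 0.0658, with a range of 0.000156 to 0.0994 over 17 alternatives). Obp57a lost it without any 1 of 8 of the 10 heads (adjusted p of 0.0516 to 0.139, and of 0.00223 to 0.139 over 17 alternatives). In the fits without 1 head the number of called members lay between 0 and 3.

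Obp56a and Obp56g missed the threshold in the same comparison. Obp56a was at a log2 fold change of 1.31 ± 0.32 (edgeR adjusted p = 0.0903) with no overlap between aged SF and aged NSF heads, and Obp56g at −0.66 ± 0.17 (adjusted p = 0.127). DESeq2 called 4 members, Obp56a and Obp56g besides the 2 above, beside 88 of 8910 genes. Of the 25 members, 10 had an unadjusted p below 0.05 in edgeR. The share of all genes below that unadjusted limit was not determined, so this count has no background. The members' median log2 fold change was 0.28, against −0.01 for all genes. The authors' deposited table lists 4 members among its 101 rows with a gene name for aged SF over aged NSF heads, all higher. In the authors' deposited table Obp56d has a q-value of 9.43e-05 and a log2 fold change of 0.62, and Obp56a a q-value of 0.00168 and a log2 fold change of 0.98. The authors' deposited table also gives Obp57a, with a q-value of 0.0077 and a log2 fold change of 0.86, and Obp56e, with a q-value of 0.04 and a log2 fold change of 0.65. The present edgeR fit put Obp56e at a log2 fold change of 0.77 with an adjusted p of 0.43.

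In bodies, the number of members that passed with age depended on the libraries in the fit. In aged NSF over young bodies 5 of 23 tested members passed, 2 higher and 3 lower, beside 41.1% of all 12009 genes tested (21.7% higher and 19.4% lower). In aged SF over young bodies 2 of 23 passed, both lower, beside 14.4% of all genes (11.1% higher and 3.26% lower). Among all genes 1336 were higher and 391 lower in aged SF over young bodies, a split of 977 and 489 with RLE scaling and of 1365 and 779 with DESeq2. The members' median log2 fold change was −0.12 for aged NSF and −0.45 for aged SF, against 0.03 and 0.02 for all genes. With only the compared groups in the fit, 7 of 24 members passed in aged SF over young bodies, 2 higher and 5 lower, beside 3369 of 11865 genes. Without aged NSF bodies 1 and 2 in the shared fit, 6 of 24 passed there, 2 higher and 4 lower, beside 3402 of 12392 genes.

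Obp44a and Obp99b were the 2 members lower in both tissues. In bodies Obp44a had 177, 205, 215, 168 and 186 CPM in aged SF flies, 54.8, 201, 187, 157 and 188 CPM in aged NSF flies and 237, 342, 471, 435 and 459.5 CPM in young flies. Every aged body lay below every young body. The log2 fold change was −1.03 ± 0.27 in aged SF (edgeR adjusted p = 0.0198) and −1.30 ± 0.28 in aged NSF over young bodies (adjusted p = 0.00247). Obp99b had 35.4, 28.9, 59.5, 12.2 and 44.8 CPM in aged SF bodies, 89.7, 22.2, 25.5, 22.6 and 29.9 CPM in aged NSF bodies and 191, 86.2, 58.9, 221 and 118 CPM in young bodies. The ranges touched through aged SF body 3 and overlapped through aged NSF body 1. Its log2 fold change was −1.90 ± 0.48 in aged SF (adjusted p = 0.0151) and −1.82 ± 0.48 in aged NSF over young bodies (adjusted p = 0.00912). In aged SF over young bodies the call was lost for Obp44a without young body 3 (adjusted p = 0.053, range 0.000189 to 0.053) and for Obp99b without young body 4 (adjusted p = 0.0503, range 0.000722 to 0.0503). Of the 6 fat body markers 3 were lower in each ageing comparison of bodies (Lsp1beta, Lsp2 and sxe2), and their part in these levels was not tested. Of all genes tested, 19.4% were lower in aged NSF and 3.26% in aged SF over young bodies.

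The other 3 body calls, those of Obp19d, Obp57b and Obp56i, were lost under many alternatives. Obp19d had 112, 133, 213, 80.2 and 141 CPM in aged SF bodies, 230.4, 177, 85.4, 75.1 and 93.4 CPM in aged NSF bodies and 58.4, 58.5, 64.4, 90.4 and 82.1 CPM in young bodies. The groups overlapped, and the log2 fold change in aged NSF over young bodies was 0.91 ± 0.31 (edgeR adjusted p = 0.0311). The 2 highest aged NSF bodies are those named above for their tissue markers, and without them the log2 fold change was 0.26 (adjusted p = 0.381, the upper end of a range from 0.0194 over 17 alternatives). In aged SF over young bodies it was 0.94 ± 0.31 (adjusted p = 0.0554), and 0.93 ± 0.20 (adjusted p = 0.00288) once those 2 aged NSF bodies were out of the shared fit.

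Obp57b averaged 28.6 ± 8.09 CPM in aged SF, 27.8 ± 6.11 CPM in aged NSF and 18.1 ± 4.35 CPM in young bodies (SD, n = 5 each). Its log2 fold change in aged NSF over young bodies was 0.63 ± 0.24 (edgeR adjusted p = 0.0462, range 0.0311 to 0.115). Obp56i, a gene of the male reproductive tract at 2R from 19864717 to 19868714 on the plus strand, averaged 13.1 ± 2.72 CPM in aged SF, 13.9 ± 3.31 CPM in aged NSF and 20.9 ± 4.32 CPM in young bodies (SD, n = 5 each). Its log2 fold change in aged NSF over young bodies was −0.58 ± 0.22 (adjusted p = 0.0463, range 0.0214 to 0.126). For both genes the groups overlapped, and the call was lost under 11 of 17 alternatives for Obp57b and under 12 of 17 for Obp56i. Over these alternatives the log2 fold change stayed between 0.54 and 0.75 for Obp57b and between −0.69 and −0.47 for Obp56i.

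The most abundant body members did not pass. Obp56g averaged 590.2 ± 166 CPM in aged SF, 879 ± 367 CPM in aged NSF and 816 ± 251 CPM in young bodies (SD, n = 5 each), with overlapping groups. Obp51a had 628, 602, 665, 248 and 476 CPM in aged SF bodies, 888, 835, 670.1, 535 and 611 CPM in aged NSF bodies and 409.6, 373, 403, 626 and 556 CPM in young bodies, and its log2 fold change of 0.59 in aged NSF over young bodies missed the threshold (edgeR adjusted p = 0.0578). Obp99a (3R, 29671657 to 29672334, plus strand) averaged 67.4 ± 13.8 CPM in aged SF, 63.2 ± 36.8 CPM in aged NSF and 126 ± 52.7 CPM in young bodies (SD, n = 5 each). Aged NSF body 1, the library with few testis transcripts, held 7.87 CPM of it.

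Without aged NSF bodies 1 and 2, 5 of 24 members passed in aged NSF over young bodies, all lower, beside 5013 of 12392 genes. These were Obp44a (log2 fold change −1.13 ± 0.20), Obp99b (−2.37 ± 0.55) and, in place of the 3 calls just described, Obp56a (−0.97 ± 0.36), Obp56d (−0.96 ± 0.28) and Obp56e (−1.33 ± 0.46). The lists with and without these libraries shared 2 members. In aged SF over young bodies the same omission added Obp19d and Obp57b (log2 fold change 0.65 ± 0.24, edgeR adjusted p = 0.0443), which were higher, and Obp56i (−0.69 ± 0.23, adjusted p = 0.0269) and Obp99a (−0.91 ± 0.28, adjusted p = 0.0284), which were lower, to Obp44a and Obp99b. Between aged SF and aged NSF bodies, edgeR called 0 of 23 members, beside 0% of all genes, with 3 members at an unadjusted p below 0.05. DESeq2 called 0 members there and 640 genes. Without aged NSF bodies 1 and 2, edgeR called 1 member, Obp56d, which was higher in aged SF bodies by a log2 fold change of 1.2 ± 0.28 (adjusted p = 0.0461).

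Changes with age were also compared between the tissues, as the log2 fold change in heads minus that in bodies. For aged NSF over young 4 of 32 members passed, 1 upward and 3 downward, beside 13.2% of all 12318 genes tested (4.34% upward and 8.83% downward). For aged SF over young 2 of 32 passed, 1 in each direction, beside 6.86% of all genes (1.62% upward and 5.24% downward). Obp56a changed more upward in heads than in bodies, by 2.86 ± 0.61 on the log2 scale for aged SF (edgeR adjusted p = 0.00422) and by 1.93 ± 0.62 for aged NSF (adjusted p = 0.0363). In bodies it averaged 83.3 ± 47.3 CPM in aged SF, 66.8 ± 47.0 CPM in aged NSF and 71.4 ± 14.1 CPM in young flies (SD, n = 5 each). Obp56g changed more downward in heads than in bodies, by −1.64 ± 0.34 for aged SF (adjusted p = 0.00284) and by −1.50 ± 0.34 for aged NSF (adjusted p = 0.00388). Obp19d (−1.26 ± 0.38, adjusted p = 0.0284) and Obp57b (−1.01 ± 0.33, adjusted p = 0.0379) passed for aged NSF only. With RLE scaling the median of all genes moved by over 0.1, to 0.12 from −0.09 for aged NSF and to 0.06 from −0.15 for aged SF. Obp56a and Obp56g kept their calls and directions, while Obp19d (adjusted p = 0.0875) and Obp57b (adjusted p = 0.125) lost theirs. Without aged NSF bodies 1 and 2 these 2 genes were at 0.209 and 0.0815. No member differed between tissues in its change of aged SF over aged NSF with edgeR (0 of 32, 1 at an unadjusted p below 0.05, and 0% of all genes).

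**Figure D5:**
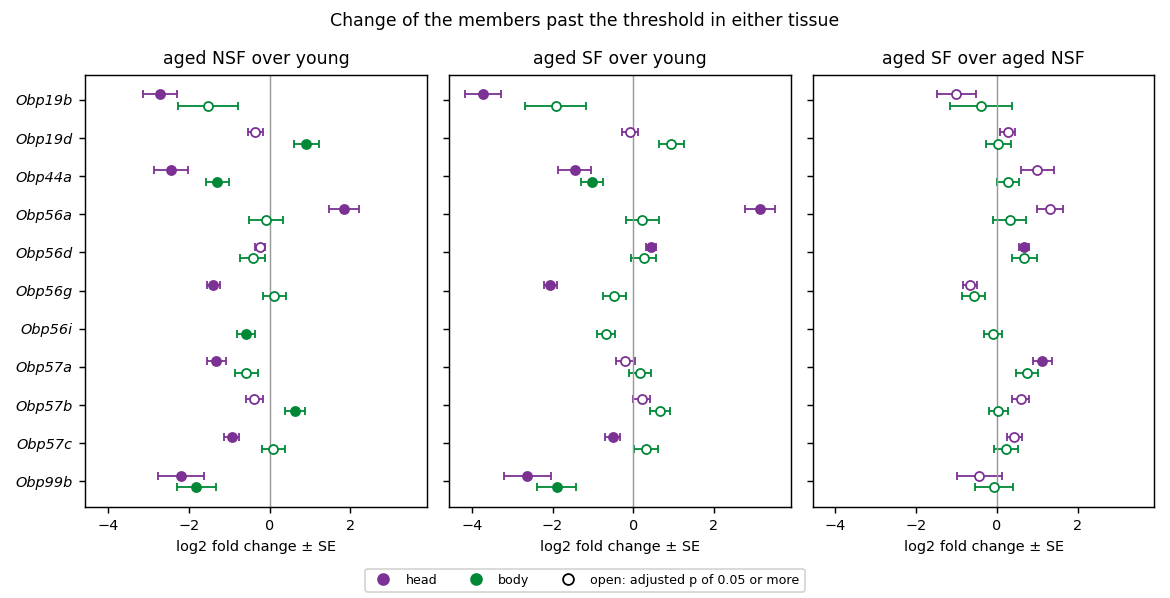
Log2 fold changes with SE of the 11 Obp genes called in at least 1 comparison within a tissue, for aged NSF over young, aged SF over young and aged SF over aged NSF (panels left to right), in heads and in bodies. Filled points passed an edgeR adjusted p of 0.05 and open points did not. Obp56a lies right of 0 in all 3 head comparisons, and Obp44a and Obp99b lie left of 0 in both tissues with age.

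The remaining tested members passed in no comparison within a tissue. In heads these included Obp18a (X chromosome), which averaged 20.1 ± 5.76 CPM in aged SF, 21.3 ± 6.15 CPM in aged NSF and 27.9 ± 2.84 CPM in young heads (SD, n = 5 each). Obp99d averaged 16.2 ± 4.07 CPM in aged SF, 14.7 ± 6.93 CPM in aged NSF and 13.3 ± 5.04 CPM in young heads (SD, n = 5 each). Obp19c, Obp56h and Obp83ef stayed at group means between 3.29 and 11.6 CPM in heads, where few reads limit any comparison. In bodies Obp22a, a seminal fluid gene at 2L from 1991381 to 1992160 on the minus strand, averaged 38.0 ± 11.02 CPM in aged SF, 43.5 ± 19.2 CPM in aged NSF and 47.9 ± 14.6 CPM in young flies (SD, n = 5 each). Obp19b, which fell most in heads, had 9.29, 9.31, 13.8, 3.05 and 6.93 CPM in aged SF bodies, 12.3, 0, 0, 9.02 and 33.1 CPM in aged NSF bodies and 28.2, 19.0, 27.4, 51.9 and 34.7 CPM in young bodies. Every aged SF body lay below every young body, and the aged NSF bodies spread from no read in bodies 2 and 3 into the young range. In the shared fit it did not pass for aged SF over young bodies (edgeR adjusted p = 0.107), and with only those groups in the fit it did (log2 fold change −1.92 ± 0.33, adjusted p = 0.00102).

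Other chemosensory genes were set beside the family. Of 187 receptor genes of chemosensory neurons (odorant, gustatory and ionotropic receptors), 11 were tested in heads. Of these 11, 1 passed in aged NSF and 2 in aged SF over young heads, beside 22.8% and 25.2% of all genes. The odorant receptor gene Or43b was lower in aged SF (log2 fold change −0.67, edgeR adjusted p = 0.00897) and in aged NSF over young heads (−0.69 ± 0.19, adjusted p = 0.00753). Its levels were 23.1 to 63.5 CPM in heads and 4.57 to 18.3 CPM in bodies. Orco, of the same list, had 0.361 to 47.8 CPM in heads and at most 1.67 CPM in bodies. Overlap of exons with other genes was looked up for Obp members only, so the source of the Or43b reads was not tested. Ir76b, a co-receptor of ionotropic receptors in taste and smell, was lower in aged SF over young heads (−1.92, adjusted p = 0.00692). No other receptor passed in heads, and with edgeR none passed in aged SF over aged NSF heads (1 of 11 at an unadjusted p below 0.05).

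Of 28 other genes of the fluid around the sensory dendrites, 9 were tested in heads. Of these 9, 3 passed in aged NSF and 1 in aged SF over young heads, beside 22.8% and 25.2% of all genes. The esterase gene Est-6 was lower in aged SF (log2 fold change −1.40, edgeR adjusted p = 0.00279) and in aged NSF over young heads (−1.64, adjusted p = 0.000976). The pheromone-sensing family gene CheA87a (2.28, adjusted p = 0.0115) and the sensory neuron membrane protein gene Snmp2 (0.56, adjusted p = 0.0484) were higher in aged NSF over young heads. CheA87a stood at 0 to 3.76 CPM in young heads and 3.04 to 14.8 CPM in aged NSF heads. Its young level was near the limit of counting, so its change in heads rests on few reads. In bodies, CheA87a was lower in aged SF (−1.80) and in aged NSF over young flies (−2.33), so that its direction in aged NSF flies was opposite between the tissues. Of 17 receptor genes tested in bodies, 1 was higher and 4 lower in aged NSF over young flies (41.1% of all genes passed there) and 0 passed in aged SF over young flies with edgeR, where 4 had an unadjusted p below 0.05. Of 11 tested perireceptor genes in bodies, 1 was higher and 4 lower in aged NSF, and 2 were higher and 2 lower in aged SF over young flies, where 14.4% of all genes passed.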

How the data were processed

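The authors trimmed reads with Trimmomatic, mapped them to dm6 from UCSC with STAR, removed reads of mapping quality below 8 and non-primary alignments, and counted reads on exons with HTSeq-count, per the series' design text. Versions and the gene annotation are not given in the sources used here. The deposited count table holds raw counts, not normalized. The authors' deposited DESeq2 table gives q-values and log2 fold changes; gene names stand beside 101 of its rows, all for aged SF over aged NSF heads, and only these were used. Strand is not stated for the kit or the counting.

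Counts were tested with edgeR 4.0.16 in R 4.3.3 (TMM factors, filterByExpr, robust quasi-likelihood fit), with 15 libraries for comparisons within a tissue and 30 for heads over bodies and for tissue differences. A gene was called at a Benjamini-Hochberg adjusted p under 0.05 over all genes tested. The SE of a log2 fold change is its size over the square root of F. CPM use TMM factors over all 30 libraries, and levels per kb use the union exon length of the Ensembl annotation of BDGP6, which has the coordinates of dm6 and matched all 51 members. Relations over heads used 100000 permutations in SciPy 1.17.1. The fit was tested on simulated counts.

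Named genes are the members called in a comparison within a tissue and the 6 highest per kb in each tissue. The members and gene lists were chosen with earlier results of these data known. Alternatives were RLE factors, no filter, at least 5 CPM in at least 5 libraries, DESeq2 1.42.0, only the compared groups, the replicate number as a block, leaving out each library, leaving out aged NSF bodies 1 and 2, and, added after the data had been seen, an antennal marker covariate. Replicate pairs were checked for copies; the lowest chi-square per degree of freedom of 60 pairs was 4.42, so none was counted as 1 sample. The labels do not say whether libraries came from separate vials, and p-values measure the spread between these flies.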

Additional observations from a re-analysis of the deposited data

Results flagged for a closer look

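In 4 groups 1 library stood apart from the other 4 by Dixon's test. Obp19b had 5.25 CPM in aged SF head 3, against 0.782 to 1.85 CPM in the other aged SF heads, and Obp56a had 0.420 CPM in young head 1, against 5.27 to 6.99 CPM in the other young heads. Obp99a had 91.8 CPM in aged SF body 3, against 58.5 to 63.8 CPM in the other aged SF bodies. Obp99b had 89.7 CPM in aged NSF body 1, against 22.2 to 29.9 CPM in the other aged NSF bodies, and this is the body with few testis transcripts. Of 81 groups examined, chance alone would give about 4.05 at a rate of 5%.

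The change with age differed between heads and bodies for 4 members by the interaction test in edgeR. For aged NSF over young flies the difference of log2 fold changes, heads minus bodies, was −1.26 for Obp19d, 1.93 for Obp56a, −1.50 for Obp56g and −1.01 for Obp57b. For aged SF over young flies it was 2.86 for Obp56a and −1.64 for Obp56g.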

How the results depend on the processing

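Member results (57 log2 fold changes of called members) kept their direction under all alternatives run. Leaving out single libraries gave 510 values, of which 458 stayed called (tissue differences were not refitted this way), and the other alternatives gave 318, of which 295 stayed called. Leaving out 1 library moved the number of called members between 7 and 9 in aged NSF over young heads, 5 and 8 in aged SF over young heads, 0 and 3 in aged SF over aged NSF heads, 2 and 7 in aged NSF over young bodies, 1 and 5 in aged SF over young bodies and 25 and 28 in young heads over young bodies, and left 0 in aged SF over aged NSF bodies. DESeq2 called 4 members in aged SF over aged NSF heads, where edgeR called 2. In aged NSF over young bodies 3 were called with no filter, against 5. In aged SF over young bodies 7 were called with only the compared groups and 6 without aged NSF bodies 1 and 2, against 2, and leaving out those bodies also gave 1 in aged SF over aged NSF bodies, against 0. The tissue difference of aged NSF over young had 2 members with RLE factors and 2 without those bodies, against 4. Over all genes, 23 were called in aged SF over aged NSF heads, against 88 with DESeq2, 63 with the replicate block, 56 with no filter, 36 with only the compared groups and 9 to 61 without 1 library; the cause was not tested. Low depth of single members limits the tests, since 19 of 51 were filtered out.

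Same-numbered libraries did not deviate together in every pair (at most 4 of 5 correlations above 0.1 in any pair of groups), so the replicate number was not taken as a pairing. Between heads and bodies of the same condition, however, every same-number correlation was positive. Their means were 0.129 in young, 0.117 in aged NSF and 0.103 in aged SF flies, against −0.032, −0.030 and −0.026 for unlike numbers. Whether a head and a body of the same number came from the same fly is not given in the labels. The main fits of 30 libraries treated them as independent. The replicate block joins equal numbers over all groups in a fit, also across conditions. It therefore does not model a head and a body of the same fly, and its counts do not settle the effect of such a pairing. With the replicate block the called members numbered 8 in aged NSF over young heads, 8 in aged SF over young heads, 3 in aged SF over aged NSF heads, 3 in aged NSF over young bodies, 2 in aged SF over young bodies, 0 in aged SF over aged NSF bodies and 27 in young heads over young bodies, and 4, 2 and 0 for the tissue differences of aged NSF over young, aged SF over young and aged SF over aged NSF.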
